A study of Mus musculus with 16 samples.

Results

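The contrast described here sets the difference between surviving GFP cells and neighbouring mCherry cells of tumours injected with T cells on day 15 against the same difference in tumours injected on day 7. It rests on 12 of the 16 libraries of the study: the GFP and the mCherry library of each of 3 tumours per injection day. The other 4 libraries, mCherry cells of control tumours that held no GFP cells and received no T cells, are not in the contrast and are used for levels only. All tumours grew from 4T07, a mouse mammary carcinoma line, of which 250000 cells carrying GFP or mCherry in equal parts were placed in the mammary fat pad. The hosts were female hybrid mice, labelled C57BL/6J x Balb/cJ with a filial number that differs from library to library. Each mouse with a mixed tumour received 7000000 Jedi T cells lacking PD1 by tail vein, 7 or 15 days after the tumour cells, and was harvested another 7 days on. Digestion took 20 minutes at 37 °C, cells were sorted after a CD45 stain and DAPI, and the sources used here do not state the CD45 gate. RNA was extracted with a micro kit or by a low input protocol of the sequencing company, and the labels do not say which library had which.

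Jedi T cells are CD8 T cells whose receptor recognises a peptide of GFP on MHC class I, so that mCherry cells of the same tumour are not targeted. T cells that meet their antigen release interferon gamma, which acts on nearby cells and induces guanylate-binding proteins (Gbp genes), immunity-related GTPases (Igtp, Irgm2 and others) and the genes that load peptides onto MHC class I. Interferon gamma diffuses, so that untargeted neighbours can respond too.

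Libraries held 9412040 to 14535791 counts in day 7 GFP cells, 12942893 to 19970822 in day 7 mCherry cells, 21183324 to 24880582 in day 15 GFP cells and 21832170 to 22248031 in day 15 mCherry cells. Between 1.19% and 2.00% of counts lay in mitochondrially encoded genes. Day 7 was sequenced in run 1 and day 15 with the controls in run 2, so that day and run cannot be told apart in a level, and only the within-tumour differences are compared between days. No GFP cells came from a tumour without Jedi T cells, so reporter and T cell attack cannot be told apart in a GFP effect. The RNA of the reporters was not checked. Tumours are numbered as in the count tables, with 2, 3 and 4 for day 7 and 1, 2 and 3 for day 15. Day 15 pairs follow the tumour number in the labels, whereas the day 7 pairs rest on the shared column number. Nothing in the labels says that 2 tumours of a day came from separate experiments. The p-values therefore measure the spread of the within-tumour differences among these tumours only. The mCherry library of day 7 tumour 4 stood apart from its group, differing from the other 2 by a chi-square of 88.2 and 92.3 per degree of freedom, where all replicate pairs ranged from 5.34 to 92.3. Of 7 mammary epithelium markers 1 passed the filter on low counts, Csn3 (kappa casein). On day 7 it was at 111 to 232 raw CPM (library-size scaled counts without the TMM factor) in GFP and 34.6 to 64.3 in mCherry libraries. On day 15 it was at 31.4 to 72.2 in GFP and 13.3 to 18.7 in mCherry libraries. Its log2 GFP effect was 1.62 on day 7 and 1.79 on day 15, a difference of 0.17 that was not called.

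In surviving GFP cells most interferon-induced effectors and the MHC class I genes stood out less from the mCherry neighbours on day 15 than on day 7. Decorin, Igf2, Inmt and Id2 stood out more on day 15. Of 16588 genes tested, 35 had a GFP effect that differed between the days at an adjusted p below 0.05 (edgeR quasi-likelihood F-test). The effect was lower on day 15 for 18 genes, 0.109% of those tested, and higher for 17 genes, 0.102%. At an unadjusted p below 0.05 the effect was lower for 963 genes (5.81%) and higher for 740 genes (4.46%). The 3 differences of one day lay outside the range of the other day for 1484 genes in the lower direction (8.95%) and 1326 in the higher direction (7.99%), and all 35 called genes were among these. The sizes of the called differences ran from 0.83 to 3.83 on the log2 scale. The median standard error of a difference was 0.30 for genes with a mean log2 CPM of 1 to 4, 0.16 for 4 to 7 and 0.14 above, so that differences well under 1 on the log2 scale could rarely be called. The count of calls depended on single tumours: 3 genes were called without day 15 tumour 1 or without day 15 tumour 2, 9 without day 15 tumour 3, 4 without day 7 tumour 2, 36 without day 7 tumour 3 and 127 without day 7 tumour 4. Ctss, Apoe and Inmt were called in all 6 of these fits. Igtp, Irgm2, Gbp2b, Tap1, Dcn, Lyz2 and Arg1 were called in 2 of them (without day 7 tumour 3 or 4), Batf2, Igf2 and Id2 in 3 (also without day 15 tumour 3), and Tapbp, Nlrc5 and Plvap in 1 (without day 7 tumour 4). Without the tumour block 2 genes were called, Ctss and Id2. The direction of all 35 genes was the same in each of the 13 alternative fits in which the gene could be tested.

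The bulk of the GFP effect went the same way on both days. On day 7, 1696 genes (10.2% of those tested) were called higher and 1602 (9.66%) lower in GFP cells, and on day 15 these numbers were 910 (5.49%) and 1154 (6.96%). Both days called 1354 genes in the same direction and 4 genes in opposite directions. Of the 3298 genes called on day 7, 93.4% had the same sign on day 15, and of the 2064 called on day 15, 95.9% had the same sign on day 7. Across all genes tested, which are not independent, the log2 effects of the days had a Pearson r of 0.48 and a Spearman rho of 0.54. Genes called higher on day 7 had a median effect of 0.60 on day 7 and 0.34 on day 15, whereas genes called higher on day 15 had medians of 0.66 on day 7 and 0.62 on day 15. A list chosen on one day's effect is pushed up on that day, so these pairs of medians describe the lists and test nothing. The median of the difference over all genes was −0.01.

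**Figure D1:**
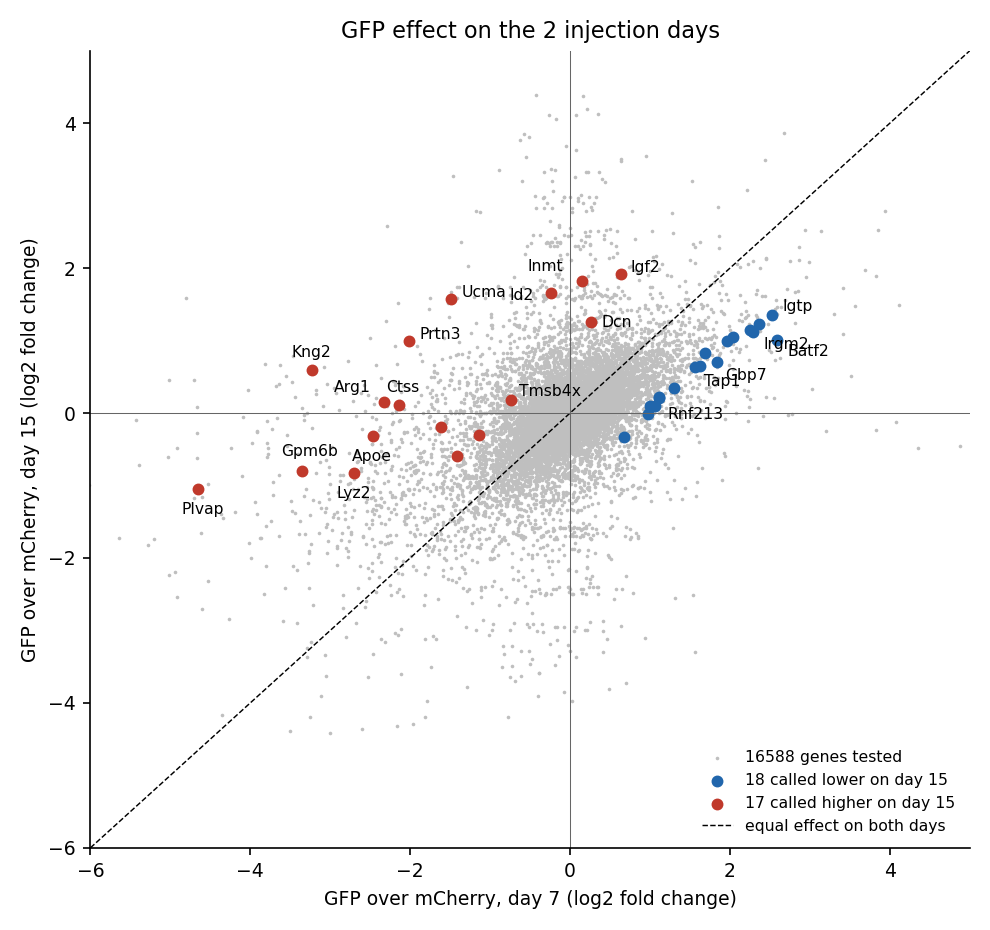
Log2 fold change of GFP over mCherry cells on day 7 (horizontal axis) against day 15 (vertical axis) for the 16588 genes tested; coloured points are the 18 genes called lower (blue) and 17 called higher (red) on day 15, and the dashed line marks equal effects. Blue points lie below the line at positive day 7 effects, red points above it and mostly at negative day 7 effects; 8 genes lie outside the plotted range.

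Promoters of 3 genes of the interferon group are shown because they hold both sequence types that interferon-activated factors are known to bind near these genes. They are RefSeq windows of 250 bases before to 50 after the start in GRCm38.p6, written 5′ to 3′ on the gene's strand, which is the plus strand for all 3. Capitals mark matches, on either strand and with overlaps allowed, to GAAANNGAA (the interferon-response type) and TTCNNNGAA (the STAT type). The windows are chr11:58199306-58199605 for Igtp, chr11:58214727-58215026 for Irgm2 and chr3:142530086-142530385 for Gbp7.
Igtp: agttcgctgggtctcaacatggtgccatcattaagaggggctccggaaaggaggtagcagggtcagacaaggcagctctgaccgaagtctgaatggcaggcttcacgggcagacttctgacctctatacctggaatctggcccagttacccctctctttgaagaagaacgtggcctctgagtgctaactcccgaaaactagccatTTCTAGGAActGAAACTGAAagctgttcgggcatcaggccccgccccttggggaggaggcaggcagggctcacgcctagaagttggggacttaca
Irgm2: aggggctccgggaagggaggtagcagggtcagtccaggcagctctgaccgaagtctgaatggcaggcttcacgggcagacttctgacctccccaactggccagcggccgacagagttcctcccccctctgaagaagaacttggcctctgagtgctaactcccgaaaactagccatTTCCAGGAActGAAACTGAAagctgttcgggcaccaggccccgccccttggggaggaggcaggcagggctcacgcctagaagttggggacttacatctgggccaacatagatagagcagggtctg
Gbp7: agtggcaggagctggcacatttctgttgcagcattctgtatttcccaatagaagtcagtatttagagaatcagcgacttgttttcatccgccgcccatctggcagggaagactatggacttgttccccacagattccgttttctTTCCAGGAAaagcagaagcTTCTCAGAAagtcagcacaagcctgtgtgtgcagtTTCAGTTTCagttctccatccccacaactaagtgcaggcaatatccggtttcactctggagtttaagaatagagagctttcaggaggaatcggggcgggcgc

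Of the 18 genes whose GFP effect was lower on day 15, 14 had a promoter in the RefSeq table, and 6 of these (42.9%) held the interferon-response type, namely Gbp2b, Gbp3, Gbp7, Igtp, Irgm2 and Noct. The same letters were in 5 of the 13 matched genes of the higher group (38.5%), Apoe, Ctss, Igf2, Tmsb4x and Ucma. They were in 8.85% of the 10572 tested genes with a promoter in the table and in 9.76% of all 27025 genes there. The STAT type was in 3 of 14 (21.4%) of the lower group, in 1 of 13 (7.69%) of the higher group and in 8.26% of the tested genes. A match says that these letters are in the window and nothing on what binds there.

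Interferon-induced effectors made up a large share of the genes with a lower effect on day 15. Of the 18 genes called lower, all 18 were higher in GFP than in mCherry cells on day 7 and had a smaller effect on day 15, and 12 were called higher on both days. They included 4 guanylate-binding protein genes (Gbp2b, Gbp3, Gbp6 and Gbp7) and 2 immunity-related GTPases (Igtp and Irgm2). Batf2, an interferon-induced transcription factor, and Rnf213, a large ubiquitin ligase, were also among them.

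Igtp stood at 1725, 1584 and 1449 CPM (library-size scaled counts with the TMM factor) in GFP cells of day 7 tumours 2, 3 and 4 and at 274, 386 and 196 CPM in the mCherry cells of the same tumours. On day 15 it stood at 331, 574 and 913 CPM in GFP cells of tumours 1, 2 and 3 and at 131, 255 and 310 CPM in their mCherry cells. Every GFP library lay above its mCherry partner, and the gap was wider in each day 7 tumour than in any day 15 tumour. The GFP level was 5.76 times the mCherry level on day 7 and 2.56 times on day 15, a difference of −1.17 ± 0.20 (SE, log2; edgeR adjusted p = 0.0372). Among the controls of run 2, which met no Jedi T cells, Igtp ranged from 134.5 to 693.8 raw CPM, a range that holds 4 of the 6 mixed-tumour libraries of that run, scaled the same way.

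Irgm2 showed the same picture at a lower level, with 486, 500 and 456 CPM in day 7 GFP cells against 88.5, 142 and 74.2 CPM in their partners. On day 15 the GFP cells had 194, 329 and 485 CPM and their partners 94.1, 165 and 195 CPM. The fold fell from 4.91 to 2.17 (difference −1.17 ± 0.19, adjusted p = 0.0309). Igtp (chr11:58199556-58207591) and Irgm2 (chr11:58199618-58222782) overlap on the same strand in GENCODE M21, so reads in the shared stretch may have been counted for either or neither.

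Gbp2b, a GTPase that coats pathogen vacuoles, had 971, 1108 and 963 CPM in day 7 GFP cells and 190, 286 and 175 CPM in mCherry cells. Its day 15 levels were 480, 675 and 1001 CPM in GFP cells against 212, 350 and 402 CPM in mCherry cells. The log2 effect went from 2.26 to 1.15 (difference −1.11 ± 0.16, adjusted p = 0.0256). The highest day 15 GFP library thus overlapped the day 7 GFP range, while the within-tumour effects of the days did not overlap. Gbp genes are near copies of each other, and the sources used here do not say how reads common to several were counted, so that the split between members is uncertain.

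Batf2 had the strongest fall among the called genes, from 2.58 to 1.01 on the log2 scale (difference −1.57 ± 0.28, adjusted p = 0.0459). Its levels were low: 63.2, 59.8 and 58.9 CPM in day 7 GFP cells against 11.1, 12.8 and 6.96 CPM in mCherry cells, and 12.3, 24.4 and 46.2 CPM in day 15 GFP cells against 8.82, 13.4 and 15.2 CPM. The day 15 tumours spread widely, from 0.48 in tumour 1 to 1.60 in tumour 3. On day 7 the within-tumour differences were 2.22 to 3.06. Batf2 overlaps Arl2 on the opposite strand, and the sources used here do not say whether counting used strand.

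Of the 43 interferon-induced effectors tested, 6 were called lower, 0 were called higher, 40 had a negative difference and 30 were lower at an unadjusted p below 0.05, where 5.81% of all genes were. The median difference of the list was −0.65, from a median effect of 1.30 on day 7 to 0.73 on day 15, where the median difference of all genes was −0.01. All 7 Gbp genes and all 6 immunity-related GTPases of the list were lower at an unadjusted p below 0.05. Iigp1, for example, had a difference of −1.08 (adjusted p = 0.125) and Gbp4 one of −1.13 (adjusted p = 0.101). The 30 lower effectors also included genes outside these GTPase families, so the lower effect was not confined to the GTPases. Some antiviral genes that type I interferon is known to induce lay nearer to 0: Ifit1 differed by 0.01, Rsad2 by 0.01, Mx1 by −0.15 and Isg15 by −0.28, with adjusted p between 0.79 and 1.00. These had smaller effects on both days, 0.72 for Ifit1 and 0.55 for Isg15 on day 7. Whether the GTPases and the antiviral genes differ in their change was not tested. Without single tumours, an alternative added after the data were seen, 22 to 32 effectors were lower at an unadjusted p below 0.05, and 0 to 12 were called: 12 without day 7 tumour 3, 10 without day 7 tumour 4 and 0 without any of the other 4 tumours.

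**Figure D2:**
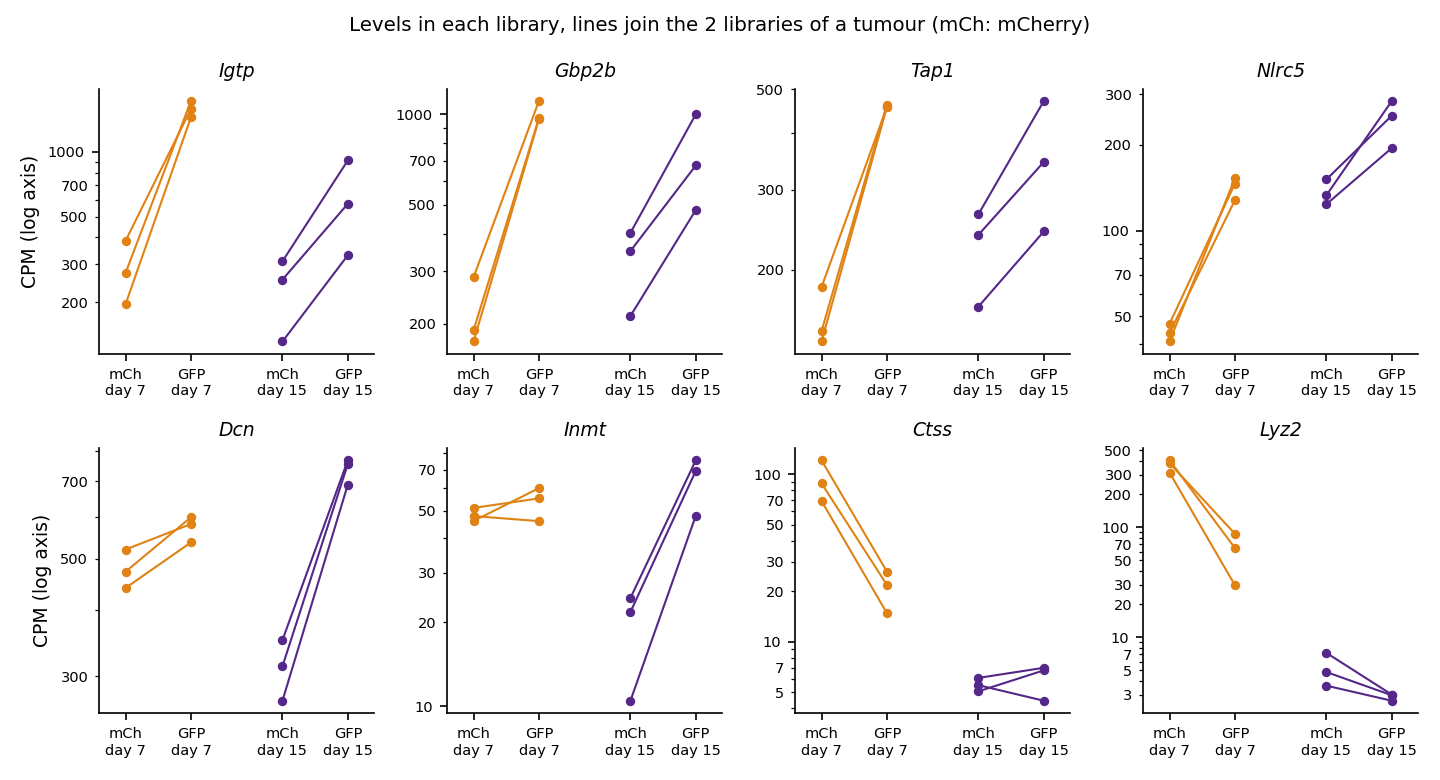
CPM of 8 genes in each of the 12 libraries, on a log axis for each gene; a line joins the mCherry (mCh) and the GFP library of a tumour, orange for day 7 and purple for day 15. Lines of Igtp, Gbp2b, Tap1 and Nlrc5 are steeper on day 7, those of Dcn and Inmt steeper on day 15, and those of Ctss and Lyz2 fall on day 7 from levels that no day 15 library reached.

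Upstream of these genes, 18 receptors and signalling genes were tested, of which 0 were called and 8 were lower at an unadjusted p below 0.05. The receptor chains Ifngr1, Ifngr2, Ifnar1 and Ifnar2 had differences between −0.18 and 0.20. Irf1, an interferon-induced transcription factor, had an effect of 1.39 on day 7 and 0.29 on day 15 (difference −1.10 ± 0.20, adjusted p = 0.056). In day 15 tumour 1 its GFP level of 297 CPM lay under the mCherry level of 317 CPM. T cell attracting chemokines were lower in GFP cells. Of 8 tested, 5 were called lower on day 7 and 2 on day 15, and 0 were called higher on either day. Their median effect was −1.43 on day 7 and −1.04 on day 15, with 5 positive and 3 negative differences. None of these differences was called, and 2 were higher at an unadjusted p below 0.05, where 4.46% of all genes were.

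MHC class I presentation followed the same direction. All 22 genes tested had a negative difference, 16 were lower at an unadjusted p below 0.05 (12 to 16 when single tumours were left out) and 4 were called: Tap1, Tapbp, Tapbpl and Nlrc5. The number called was 4 without day 7 tumour 4, 1 without day 7 tumour 3 and 0 without any of the other 4 tumours. The median effect of the list went from 0.81 to 0.34. Tap1, a subunit of the pump that carries peptides into the endoplasmic reticulum, had 463, 456 and 456 CPM in day 7 GFP cells and 146, 183 and 139 CPM in mCherry cells. On day 15 it had 243, 346 and 471 CPM in GFP cells and 166, 239 and 265 CPM in mCherry cells. The fold was 2.96 on day 7 and 1.56 on day 15 (difference −0.93 ± 0.15, adjusted p = 0.0302). Tap1 overlaps Psmb9 on the opposite strand.

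Tapasin (Tapbp), which holds class I molecules at that pump, had no called GFP effect on day 15: the log2 effect was 1.11 on day 7 and 0.22 on day 15 (adjusted p of the day 15 effect 0.194). Its day 15 levels of 480, 717 and 869 CPM in GFP cells and 488, 608 and 634 CPM in mCherry cells overlapped, whereas on day 7 the GFP cells had 921, 921 and 830 CPM and the mCherry cells 408, 433 and 397 CPM. Tapbpl, a peptide editor related to tapasin, went from 1.62 to 0.65. Tapbp overlaps Zbtb22 on its own strand, and Tapbpl overlaps Vamp1 on the opposite strand. Nlrc5, the transactivator of class I genes, had 152, 146 and 128 CPM in day 7 GFP cells against 40.8, 47.0 and 43.8 CPM, and 195, 253 and 284 CPM in day 15 GFP cells against 124, 151 and 133 CPM. Its difference was −0.86 ± 0.16 (adjusted p = 0.0495).

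The class I chains differed less. H2-K1 went from 0.77 to 0.38 and H2-D1 from 0.84 to 0.42, with adjusted p of the difference of 0.371 and 0.355. B2m, the light chain, had an effect of 0.57 on day 7 and 0.46 on day 15 (difference −0.11 ± 0.17, adjusted p = 0.88), and its sign turned when day 7 tumour 4 was left out. Cd274, the gene of the checkpoint ligand PD-L1, kept a clear GFP effect on both days. It had 133, 141 and 97.8 CPM in day 7 GFP cells against 23.4, 29.1 and 18.1 CPM, and 123, 159 and 260 CPM in day 15 GFP cells against 33.1, 68.0 and 77.8 CPM. The fold was 5.30 on day 7 and 3.07 on day 15, and the difference of −0.79 ± 0.17 was not called (adjusted p = 0.101), although the tumours of the days did not overlap.

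The other genes with a lower effect on day 15 have no common role. Ahnak2, which encodes a large scaffold protein, went from 1.30 to 0.35 and was called on both days. Cdk18 (a cyclin-dependent kinase, 1.06 to 0.09), Pnpla7 (a lysophospholipase, 0.97 to −0.02) and Adamts14 (a procollagen protease, 1.01 to 0.09) were called on day 7 and not on day 15. Noct, a circadian phosphatase, had 20.9, 22.2 and 26.8 CPM in day 7 GFP cells against 15.4, 11.4 and 17.2 CPM. On day 15 its GFP cells had 22.7, 20.1 and 24.5 CPM, each below the 26.9, 24.8 and 33.4 CPM of their partners, and the difference was −1.01 ± 0.18 (adjusted p = 0.0459). Olfr56 spans Ifi47 on its own strand and Tgtp1 and Tgtp2 on the other, which are interferon-induced GTPases, so that its counts may hold their reads.

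**Figure D3:**
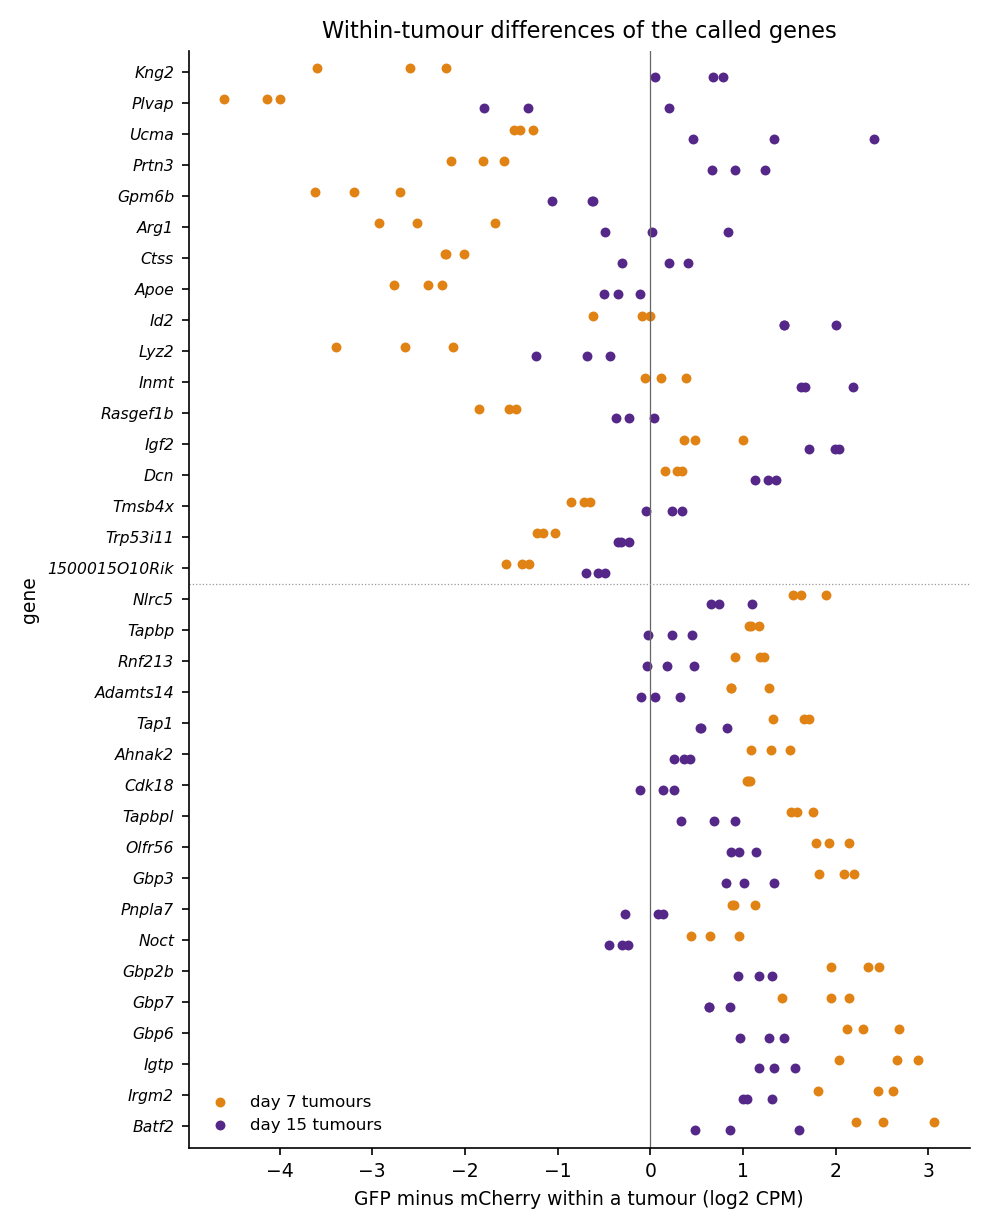
Log2 CPM of the GFP library minus that of the mCherry library in each of 3 day 7 tumours (orange) and 3 day 15 tumours (purple), for the 35 called genes; those above the dotted line were called higher on day 15 and those below it lower. In each row the points of one colour lie outside the range of the other.

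In the opposite direction, 4 genes were called higher in GFP cells on day 15 with a smaller effect or none called on day 7: Dcn, Igf2, Inmt and Id2. Decorin (Dcn), a small proteoglycan that binds collagen and TGF-beta, had 537, 599 and 582 CPM in day 7 GFP cells and 440, 473 and 520 CPM in mCherry cells. On day 15 it had 690, 767 and 755 CPM in GFP cells and 270, 351 and 313 CPM in mCherry cells. The groups did not overlap on either day, and the GFP level was 1.20 times the mCherry level on day 7 (adjusted p = 0.0662) and 2.38 times on day 15 (adjusted p = 1.05e-05). The difference was 0.99 ± 0.13 (adjusted p = 0.0167). The 4 controls of run 2 had 199.5 to 559.3 raw CPM, under each of the 3 day 15 GFP libraries on the same scale (660.2 to 754.4). Dcn was also on the fibroblast list, of which 0 of the 9 other members tested were called. The summed level of the fibroblast list was 998 to 1030 raw CPM in day 7 GFP libraries, 1003 to 1090 in day 7 mCherry libraries, 1458 to 1653 in day 15 GFP libraries and 1153 to 1289 in day 15 mCherry libraries. These sums hold Dcn itself. Without Dcn they were 421 to 454, 552 to 588, 798 to 898 and 881 to 977 raw CPM in the same order, so that the mCherry libraries had the higher sums on day 7, and on day 15 the groups overlapped. Most of these sums came from Pdgfra and Gsn, at 590 to 666 and 168 to 200 raw CPM in day 15 GFP libraries. In the same libraries Dpt was at 1.05 to 1.89 and Lum at 0.362 to 0.85 raw CPM.

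Inmt, which encodes a methyltransferase of indoles and other amines, had one of the 3 differences that were called whichever tumour was left out. Its levels were alike in both colours on day 7, with 55.3, 45.9 and 60.1 CPM in GFP cells and 51.1, 47.8 and 45.9 CPM in mCherry cells. On day 15 the GFP cells had 48.0, 69.3 and 75.6 CPM and the mCherry cells 10.5, 21.7 and 24.4 CPM. The log2 effect was 0.15 on day 7 and 1.82 on day 15 (difference 1.67 ± 0.18, adjusted p = 0.0033). The controls had 4.61 to 39.95 raw CPM.

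Igf2, a growth factor of the insulin family, was called higher in GFP cells on both days, by 0.63 on day 7 and by 1.92 on day 15. Its day 15 levels differed strongly between tumours, with 165, 438 and 88.2 CPM in GFP cells of tumours 1, 2 and 3 and 40.3, 110 and 26.8 CPM in their partners, while the within-tumour differences of 2.03, 2.00 and 1.72 were close to each other. On day 7 the levels were 20.1, 31.9 and 18.1 CPM in GFP cells and 14.4, 15.9 and 14 CPM in mCherry cells. The difference was 1.29 ± 0.18 (adjusted p = 0.0167). The controls had 14.9 to 119.4 raw CPM of Igf2, and the highest lay above the GFP library of day 15 tumour 3, at 85.65 on the same scale. H19, the neighbouring imprinted gene, went the other way without a call, from 3.94 on day 7 to 2.78 on day 15 (difference −1.16 ± 0.78, adjusted p = 0.649).

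Id2, an inhibitor of basic helix-loop-helix factors, had 21.8, 16.3 and 14.3 CPM in day 7 GFP cells against 23.3, 16.4 and 21.9 CPM in mCherry cells. On day 15 the GFP cells had 14.4, 10.9 and 13.1 CPM and the mCherry cells 3.49, 3.95 and 4.74 CPM. The effect was −0.24 on day 7 and 1.65 on day 15 (difference 1.89 ± 0.24, adjusted p = 0.0154). The controls, at 4.42 to 7.02 raw CPM, lay below all 3 day 15 GFP libraries.

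Several of the remaining genes with a higher effect on day 15 are genes of macrophages, and they were called lower in GFP cells on day 7 and not on day 15. Ctss, which encodes cathepsin S, the protease that trims the invariant chain in macrophages and other antigen-presenting cells, had 26.2, 14.8 and 21.8 CPM in day 7 GFP cells and 121, 69.2 and 88.0 CPM in mCherry cells. On day 15 all 6 libraries lay between 4.45 and 6.99 CPM. The effect was −2.14 on day 7 and 0.12 on day 15 (difference 2.26 ± 0.20, adjusted p = 3.85e-04), and Ctss was called in all 13 alternative fits. Apoe, the lipid carrier, had 49.1, 16.8 and 39.1 CPM against 233, 115 and 207 CPM on day 7, and 19.8, 14.2 and 12.1 CPM against 21.3, 20.1 and 15.4 CPM on day 15. Its difference was 2.15 ± 0.17 (adjusted p = 2.82e-04) and was called in every fit that left out a tumour, but not in the fit without the tumour block.

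Lyz2, the lysozyme of myeloid cells, had 64.7, 29.8 and 87.2 CPM in day 7 GFP cells and 405, 313 and 382 CPM in mCherry cells. On day 15 it had 3.01, 2.97 and 2.65 CPM in GFP cells and 7.21, 4.83 and 3.63 CPM in mCherry cells, so that both colours held far less of it in that run. The effect was −2.71 on day 7 and −0.82 on day 15 (difference 1.88 ± 0.32, adjusted p = 0.0359). Arg1, the arginase of suppressive macrophages, went from −2.33 to 0.15, with 9.44, 3.35 and 13.0 CPM against 54.7, 26.2 and 41.6 CPM on day 7 and between 2.21 and 9.39 CPM in all day 15 libraries. The controls of run 2 held 13.6 to 46.1 raw CPM of Lyz2 and 30.1 to 93.3 of Apoe, more than any of the day 15 mixed-tumour libraries of the same run.

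Markers of macrophages as a whole moved with these genes. All 19 macrophage markers tested, of 20 on the list, were called lower in GFP cells on day 7 and 9 were on day 15. Their difference was positive in 19 of 19, reached an unadjusted p below 0.05 in 16 (15 to 18 when single tumours were left out), where 4.46% of all genes did, and was called in 1, Lyz2. The median effect went from −2.61 to −1.35. The summed level of the list was 116 to 203 raw CPM in day 7 GFP libraries and 718 to 1062 in day 7 mCherry libraries, against 58.2 to 75.3 and 99.7 to 127 on day 15 and 95.5 to 251 in the controls. Cd14, which tumour cells can also express, made up 34.6 to 50.9 raw CPM of the day 15 GFP sums. The defining markers Adgre1, Csf1r and Ptprc (CD45) were at 7.86 to 10.9, 10.8 to 26.7 and 4.82 to 10.5 raw CPM in day 7 mCherry libraries and at most 0.63, 2.11 and 1.48 raw CPM in day 15 libraries of mixed tumours. In bulk libraries fewer macrophages and less macrophage RNA per cell cannot be told apart. Their part in the differences of Ctss, Apoe, Lyz2 and Arg1 was not tested.

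Endothelial markers showed the same order. Of 13 tested, of 15 on the list, 12 were called lower in GFP cells on day 7 and 5 on day 15, and the median effect went from −3.39 to −1.05. Plvap, a protein of the diaphragms of fenestrated vessels, had 0.210, 0.447 and 0.395 CPM in day 7 GFP cells and 4.99, 9.67 and 12.1 CPM in mCherry cells, against 1.68, 2.10 and 2.57 CPM and 6.09, 1.81 and 6.58 CPM on day 15. Its difference was 3.59 ± 0.58 (adjusted p = 0.0301), and in day 15 tumour 2 the GFP library lay above its partner. The summed endothelial level was 19 to 20.6 raw CPM in day 7 GFP libraries, 56.8 to 103 in day 7 mCherry libraries, 25.0 to 34.5 in day 15 GFP libraries and 39.9 to 78.2 in day 15 mCherry libraries. On day 7 markers of T and NK cells summed to 2.396 to 7.23 raw CPM in GFP and 3.87 to 7.27 in mCherry libraries. On day 15 the sums were 0.558 to 0.992 in GFP and 0.633 to 0.72 in mCherry libraries. Of these 14 markers, 4 passed the filter. In day 7 libraries Cd3e was at 0.482 to 1.28 raw CPM in GFP and 0.309 to 0.551 in mCherry cells. Cd3g was at 0.532 to 0.824 and 0.155 to 0.507, Nkg7 at 0.299 to 1.38 and 0.155 to 1.7. Klrk1 went the other way, at 0.15 to 0.425 in GFP and 1.39 to 1.86 in mCherry cells. On day 15 Cd3e and Cd3g were above 0 in all 6 libraries, Cd3g at 0.129 to 0.567 in GFP and 0.0917 to 0.315 in mCherry cells. Ifng, Cd3d and Gzmb did not pass the filter. In day 7 GFP libraries Ifng ranged from 0 to 0.138, Cd3d from 0 to 0.532 and Gzmb from 0 to 2.02 raw CPM. The day 7 mCherry ranges overlapped these, at 0 to 0.0634, 0.155 to 0.351 and 0.0773 to 1.08 in the same order. Ifng was at 0 in all 6 day 15 libraries, and Cd3d and Gzmb were at 0 in the 3 day 15 mCherry libraries. Neutrophil markers summed to 5.64 to 13.3 raw CPM in GFP and 10.2 to 39.2 in mCherry libraries on day 7. Their day 15 sums were 1.17 to 4.06 in GFP and 2.57 to 18.0 in mCherry libraries, and 3 of 8 passed, with 0 called. Day and run cannot be told apart in these levels.

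MHC class II genes present peptides to CD4 T cells and are expressed by macrophages and other antigen-presenting cells, and interferon gamma can induce them in further cell types through Ciita. Of 9 genes tested, of 11 on the list, 8 were called higher in GFP cells on day 15 and 4 on day 7. The difference was called for 1, Ctss, and was higher at an unadjusted p below 0.05 for 5, Ctss, Cd74, H2-Aa, H2-Ab1 and H2-Eb1 (3 to 5 of the list when single tumours were left out). Macrophage markers, whose difference was positive in 19 of 19, moved the same way between the days, with the sums given above. Within day 15, however, 9 of these markers were called lower in GFP cells and 0 higher, whereas 8 class II genes were called higher. The part of the macrophage markers in the class II result was not tested. H2-Ab1, a chain of the class II dimer, had 257, 159 and 365 CPM in day 7 GFP cells and 361, 212 and 190 CPM in mCherry cells, and 92.8, 205 and 424 CPM against 64.5, 124 and 122 CPM on day 15. The difference of 1.01 ± 0.37 was not called (adjusted p = 0.36), and the tumours of the days overlapped. Ciita, the transactivator of class II genes, and H2-DMa, a peptide loader, had higher levels in GFP cells on both days, with differences of −0.50 (adjusted p = 0.731) and −0.02 (adjusted p = 0.997). When day 7 tumour 4 was left out, the difference was called higher for 5 class II genes.

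**Figure D4:**
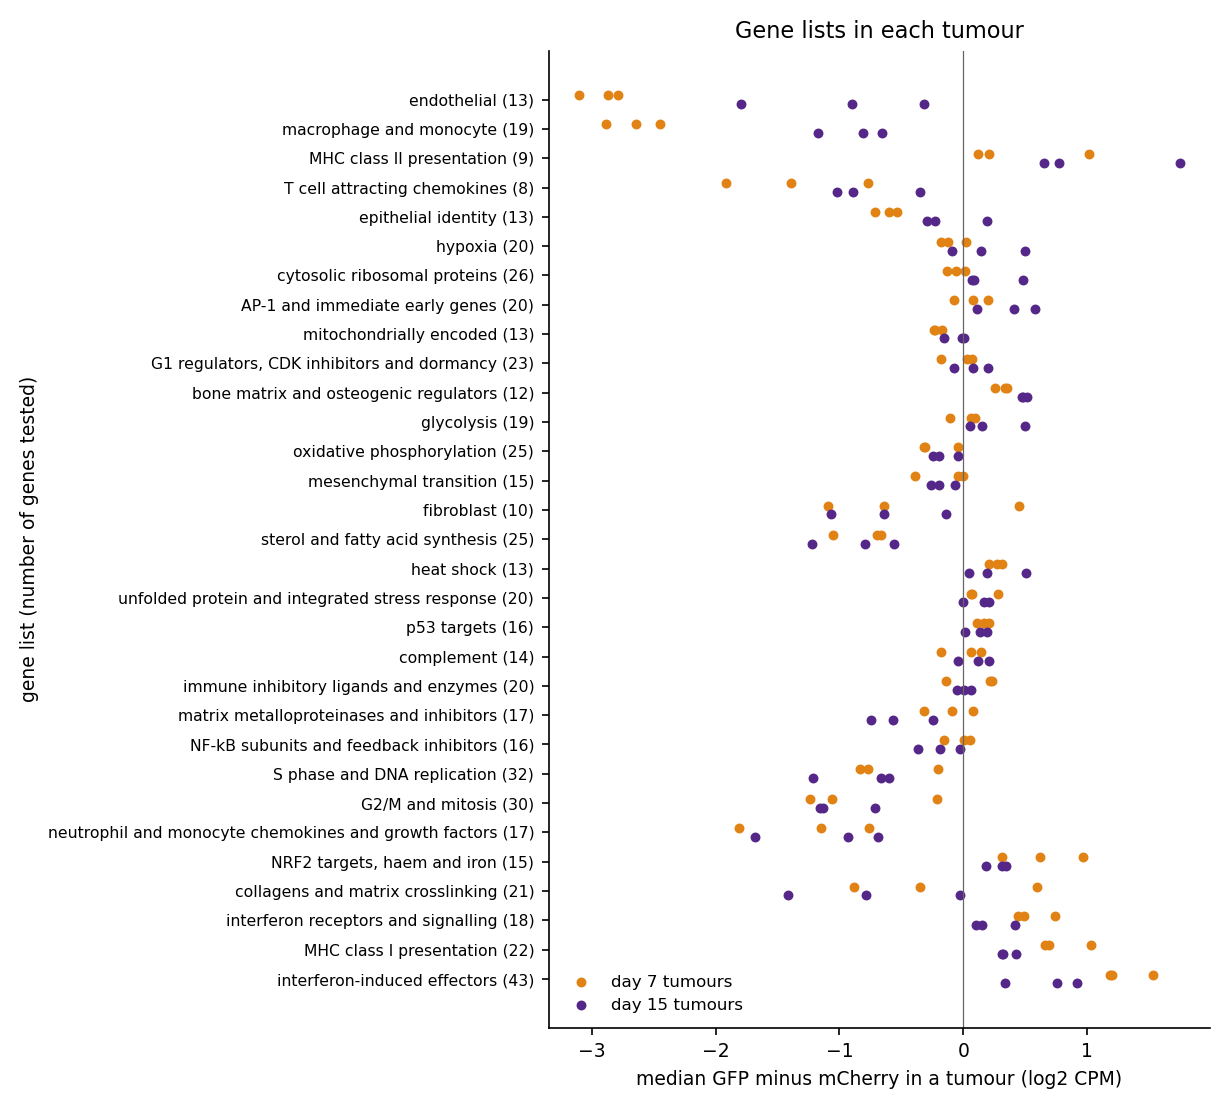
Median over the tested genes of each list of the within-tumour log2 CPM difference, GFP minus mCherry, in 3 day 7 tumours (orange) and 3 day 15 tumours (purple); lists are ordered by the median difference between days, and the number of tested genes stands in brackets. The days separate for the interferon, MHC class I, macrophage and endothelial lists. They also separate, by less, for the ribosomal, mitochondrially encoded, epithelial identity and bone matrix lists. They overlap for the others, among them the G2/M, sterol and collagen lists.

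Of the 17 genes called higher, 2 were called in opposite directions on the 2 days, both at low counts. Ucma, a cartilage matrix protein, had 1.26, 0.670 and 0.921 CPM in day 7 GFP cells against 3.52, 1.77 and 2.75 CPM, and 1.09, 4.94 and 2.48 CPM in day 15 GFP cells against 0.761, 0.836 and 0.920 CPM. Prtn3, a serine protease of granulocytes that overlaps Plppr3, went from −2.02 to 0.99. Fcgr4, an Fc receptor of myeloid cells (−0.75 to 0.90), and Tenm4, a teneurin (0.79 to −0.63), were called in opposite directions too, but their difference was not called (adjusted p = 0.0571 and 0.0631). Tmsb4x, which encodes the actin-binding thymosin beta 4 and is abundant in leukocytes, went from −0.74 to 0.18. Its day 7 levels were 414, 389 and 377 CPM in GFP cells and 650, 702 and 619 CPM in mCherry cells, and its day 15 levels of 204, 211 and 194 CPM and 173, 219 and 153 CPM overlapped.

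Cell division genes were lower in GFP cells on both days. Of 30 genes of G2/M and mitosis, 23 were called lower in GFP cells on day 7, 28 on day 15, and 0 had a difference that was called. At an unadjusted p below 0.05, 1 differed (Foxm1, −0.57, lower on day 15), and the DESeq2 fit called 0 of the list. The median effect was −0.79 on day 7 and −1.03 on day 15, and day 7 tumour 4 had a median of −0.21 where the other day 7 tumours had −1.24 and −1.06. Without it the median difference of the list turned from −0.22 to 0.12 and 5 members were higher on day 15 at an unadjusted p below 0.05, whereas without day 7 tumour 2 there were 9 lower, without day 7 tumour 3 there were 3 lower and without day 15 tumour 2 there were 3 lower. Mki67, a marker of cycling cells, had 64.6, 73.5 and 179 CPM in day 7 GFP cells against 157, 150 and 230 CPM, and 132, 168 and 203 CPM in day 15 GFP cells against 406, 301 and 464 CPM. Its difference was −0.34 ± 0.24 (adjusted p = 0.67). Cdkn1b, an inhibitor of cyclin-dependent kinases, differed by 0.41 (adjusted p = 0.447), from −0.20 to 0.21. Of 32 S phase genes, 21 were called lower in GFP cells on day 7 and 27 on day 15, and 0 had a called difference. At an unadjusted p below 0.05, 5 were lower on day 15, against 3 without day 15 tumour 2, 0 without day 15 tumour 1, and 0 lower and 3 higher without day 7 tumour 4.

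**Figure D5:**
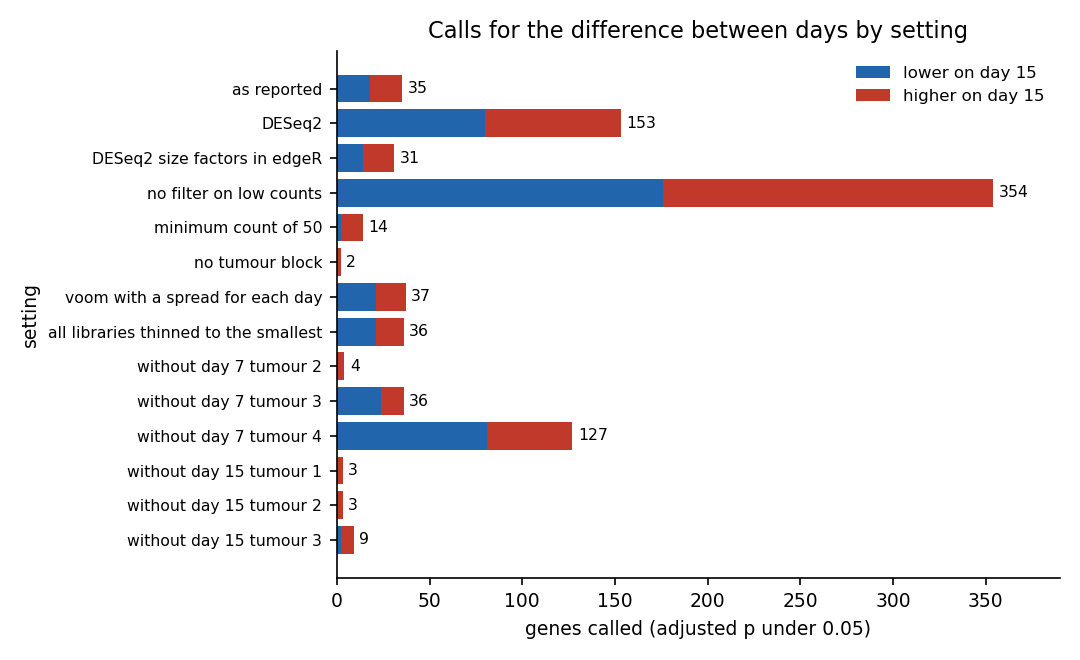
Number of genes whose GFP effect was called different between the days in the reported fit and in each alternative, higher and lower on day 15 shown apart; bars start at 0. The reported fit calls 17 and 18 genes, and fits without a day 15 tumour call 3 to 9 in all.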

How the data were processed

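RNA of sorted GFP and mCherry tumour cells was sequenced from 3 tumours per injection day. The authors deposited raw counts per gene in 1 table per sequencing run, with mm10 as the build per the submitters' processing notes. Aligner, counter and use of strand: not given in the sources used here. Each table has 49315 rows. The day 7 table gives symbols only, so tables were joined on the 48944 symbols that occur once (195 rows with a shared symbol and 176 without a symbol were left out).

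Genes were filtered with filterByExpr (minimum count 10, minimum total 15), scaled by TMM and fitted with edgeR 4.0.16 (R 4.3.3) by the quasi-likelihood F-test, with a term for each tumour and a GFP effect for each day. The contrast was the day 15 minus the day 7 effect. Benjamini-Hochberg adjustment ran over all genes, and called means an adjusted p below 0.05. CPM values are TMM-scaled, whereas summed marker levels and values set beside controls are raw CPM, without TMM. With 3 against 3 tumours there is no exact permutation p under 0.1. Residuals of libraries with the same tumour number correlated at 0.0876 to 0.138 on day 7 and 0.0836 to 0.177 on day 15, and all others at −0.117 to −0.00122. The residuals were taken from the mean of each colour and day and sum to 0 for each gene. Positive values of the same-number pairs therefore push the others below 0, and the gap between them is partly built in. Day 15 pairs come from the tumour number in the labels, day 7 pairs from the column number. The scripts were tested on simulated data.

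The contrast, the 40 gene lists (24 pathway, 12 cell type, 4 quality) and the rule for named genes were chosen with earlier results of these data known. The rule takes up to 12 called genes per direction with non-overlapping tumours and a mean log2 CPM of at least 1, the 2 tested genes of smallest p in each list, and 18 further genes. Other genes named were chosen after their values were seen. The alternatives tried were no filter, a minimum count of 50, DESeq2 1.42.0, edgeR with DESeq2 size factors, no tumour block, limma 3.58.1 voom, thinning and leaving out each tumour. List counts without each tumour were added after the data were seen. Promoters are RefSeq windows of GRCm38.p6. The authors' own comparison tables were not used. Not every gene that the rule names is printed.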

Additional observations from a re-analysis of the deposited data

Results flagged for a closer look

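Each of the 35 genes below had a GFP effect that differed between injection days by the interaction test (edgeR, adjusted p below 0.05 over 16588 genes). Values are day 15 minus day 7 on the log2 scale. Among interferon-induced genes, the difference was −1.57 for Batf2, −1.17 for Irgm2, −1.17 for Igtp, −1.13 for Gbp6, −1.13 for Gbp7, −1.11 for Gbp2b, −0.98 for Gbp3 and −0.90 for Rnf213. Among class I genes it was −0.97 for Tapbpl, −0.93 for Tap1, −0.89 for Tapbp and −0.86 for Nlrc5. The other lower genes were Noct at −1.01, Pnpla7 at −0.99, Olfr56 at −0.98, Cdk18 at −0.97, Ahnak2 at −0.95 and Adamts14 at −0.92.

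In the higher direction, genes of macrophages and vessels were at 1.88 for Lyz2, 2.15 for Apoe, 2.26 for Ctss, 2.48 for Arg1 and 3.59 for Plvap. Genes called higher in GFP cells on day 15 were at 0.99 for Dcn, 1.29 for Igf2, 1.67 for Inmt, 1.89 for Id2, 3.01 for Prtn3 and 3.06 for Ucma. The remaining genes were 1500015O10Rik at 0.83, Trp53i11 at 0.84, Tmsb4x at 0.92, Rasgef1b at 1.43, Gpm6b at 2.55 and Kng2 at 3.83. The last of these, a kininogen gene, had an effect of −3.23 on day 7 and 0.60 on day 15.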

How the results depend on the processing

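All 35 called genes kept their sign in the 13 alternatives, Ctss was called in each of them, and Ctss, Apoe and Inmt were called whichever tumour was left out. The number of calls was 153 with DESeq2 (73 higher, 80 lower), 31 with DESeq2 size factors (17 and 14), 354 without a filter (178 and 176), 14 at a minimum count of 50 (12 and 2), 37 with voom and 36 after thinning. Without the replicate block that pairs the libraries of a tumour, 2 genes were called (2 higher). Leaving out a tumour gave 3 to 127 calls for the difference, 1568 to 3760 for the day 7 effect and 535 to 2965 for the day 15 effect. Differences of 3 uncalled genes turned sign when a tumour was left out: B2m ranged from −0.216 to 0.0513 (positive without day 7 tumour 4), Cxcl10 from −0.557 to 0.0321 (positive without day 7 tumour 2) and Hmox1 from −0.520 to 0.106 (0.0536, 0.0825 and 0.106 without day 7 tumour 2, day 15 tumour 2 and day 15 tumour 3). The difference of mt-Co3, 0.56 as reported, was −0.298 after thinning, and its day 15 libraries held 9 to 24 counts. The cause of these changes was not tested. Of the other gene differences under an alternative, 1025 kept direction and side of the threshold, 210 lost and 70 gained a call. Of 517 list medians, 35 moved by more than the spread between tumours and 48, from 16 lists, changed sign. At a minimum count of 50, 3 cell type lists had no tested member. Day 7 libraries were shallower, and low genes carried larger errors on both days.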

Other observations

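Several gene groups had no called difference between days but counts above the background at an unadjusted p below 0.05 (edgeR), where 4.46% of genes were higher and 5.81% lower. Of 20 hypoxia genes tested, 8 were higher on day 15, with a median effect of −0.07 on day 7 and 0.16 on day 15. Egln3, the oxygen-sensing hydroxylase that hypoxia induces, went from −0.95 to −0.12 (difference 0.83, adjusted p = 0.0964). Leaving out single tumours gave 4 to 10 such genes, with 4 without day 15 tumour 1. Of 26 cytosolic ribosomal protein genes, 8 were higher and all 26 had a positive difference, with a median of 0.26. The number of ribosomal genes was 0 without day 15 tumour 1, 2 without day 7 tumour 2, and 4 without day 7 tumour 3 or without day 7 tumour 4. Of 15 NRF2, haem and iron genes, 6 were lower, from a median of 0.67 to 0.28; there were 2 without day 7 tumour 2 or without day 15 tumour 3, and 3 without day 15 tumour 2. Hmox1, the haem-degrading enzyme, was nonetheless high in GFP cells on both days, at 2.13 and 2.01. Slc7a11, the cystine importer, went from 0.75 to −0.34 (adjusted p = 0.194).

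Genes of sterol and fatty acid synthesis were called lower in GFP cells for 17 of 25 on day 7 and for 21 of 25 on day 15, with medians of −0.86 and −0.83 and 0 called differences (2 higher and 3 lower at an unadjusted p below 0.05). Collagens and crosslinking genes had a median of −0.32 on day 7 and −0.81 on day 15, and the tumours of the days overlapped. Of 21 tested, 17 had a negative difference, 0 were called, and at an unadjusted p below 0.05 there were 4 lower and 2 higher. The number lower was 9 without day 7 tumour 4, 7 without day 15 tumour 2 and 2 without day 15 tumour 1. Ngfr, a neurotrophin receptor, was higher in GFP cells by 3.85 on day 7 and by 2.52 on day 15 (difference −1.33, adjusted p = 0.153). Txnip, an inhibitor of thioredoxin and of glucose uptake, went from −0.98 to 0.01 (difference 0.99, adjusted p = 0.0632).

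The level of at least 1 mitochondrially encoded gene differed strongly between the days, which coincide with the sequencing runs. The counts of mt-Co3, a subunit of cytochrome c oxidase, were 1778 to 3601 in the 6 day 7 libraries and 9 to 24 in the 6 day 15 libraries. Its level was 155 to 189 CPM on day 7 and 0.418 to 1.19 CPM on day 15, whereas mt-Co1, another subunit, had 3791 to 6720 CPM on day 7 and 5174 to 7514 CPM on day 15. Both colours of a run shared the low level. Levels of single genes therefore cannot be compared between days without this limit, and the cause was not tested.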
